A study of Mus musculus with 6 samples.

Results

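The genes described here are 10 of the 21878 in the deposited expression table of HT22 cells, taken by symbol: Mapt, which encodes tau, the microtubule-associated proteins Map2, Map4, Map1a and Map1b, the tau kinases Gsk3a, Gsk3b, Cdk5 and Mark2, and Cdk5r1, the activator of Cdk5. HT22 is an immortalised mouse line labelled as hippocampal neuronal. RNA of 3 control replicates was compared with RNA of 3 replicates given 120 µM aluminum maltolate (Al), a complex in which the ligand maltol keeps aluminum soluble. The libraries were the inputs of an m6A immunoprecipitation experiment, and the series describes the 3 of each group as biological replicates. The labels do not say whether the control cells received medium or maltol, both of which the methods describe. The methods give 24 h of treatment before harvest in general and no separate time for the sequenced cells. The labels mark the treated libraries with a letter only, and their treatment rests on the series' design text and on the rule by which they were chosen.

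Tau and the other microtubule-associated proteins bind along microtubules and stabilise them. Map2 lies mainly in dendrites and tau mainly in axons of mature neurons, Map1a and Map1b are large neuronal proteins whose precursors are cleaved into heavy and light chains, and Map4 is the widely expressed member found in dividing and non-neuronal cells. Phosphorylation by glycogen synthase kinase 3, by Cdk5 with its p35 activator and by the MARK family lowers the affinity of tau for microtubules, and heavily phosphorylated tau forms the tangles of Alzheimer's disease. The libraries measure RNA only and hold no measure of tau protein or its phosphorylation.

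In short, transcripts of 5 of the 9 tested genes were lower in the Al group, where 24.4% of all tested genes were called lower, Map4 by the most at 33.7% of its control level, followed by Gsk3b, Map1a, Mark2 and Cdk5, while Cdk5r1 was higher at 154%, a call lost on deposited FPKM and turned to -0.11 on the log2 scale with TPM. The Cdk5 and Mark2 calls were each lost in some alternatives given with those genes. Mapt, Map1b and Gsk3a did not pass both thresholds, and Map2 was at the limit of detection. Values are FPKM, a read count divided by transcript length and library depth. For the comparison each library's FPKM were divided by a size factor, the median over genes of the ratio to the geometric mean library, and tested on log2(scaled FPKM + 0.1) with limma. Calls required P below 0.05 before adjustment together with a log2 fold change beyond 0.58 in either direction, and the adjusted P values printed below come from the Benjamini-Hochberg method applied to all 12889 tested genes. FPKM of single libraries are printed as deposited unless called scaled, whereas fold changes and percentages of control are those of the scaled values on that log2(value + 0.1) scale. The P values from limma set the difference between the groups against the spread of these 6 libraries within their groups. That spread is drawn towards a trend over all tested genes.

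Calls were common in these libraries. Of all tested genes 50.6% were called, 24.4% lower and 26.2% higher, and 62.1% had an adjusted P under 0.05 with no fold threshold. Among the 9 tested members 5 were called lower and 1 higher, and 8 had an adjusted P under 0.05. All 3 scaled Al values lay below all 3 control values in 7 members and in 33.1% of tested genes, and above them in 1 member and in 35.1% of tested genes. The median log2 fold change was -0.68 over the tested members and 0.03 over all tested genes.

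The scaling set the size of these changes. The reads behind the FPKM, recovered from their whole steps, totalled between 38059492 and 44556768 in control libraries and between 21125631 and 26670978 in Al libraries, so depth and treatment cannot be told apart. The size factors were between 1.17 and 1.21 in control libraries and between 0.802 and 0.932 in Al libraries. On FPKM as deposited, leaving out the size factors moved a change by -0.48 on the log2 scale, less in low genes through the pseudocount, and 1805 genes were higher and 5417 lower. After scaling each library to one sum (TPM) that shift was -0.77, with 1200 higher and 6843 lower, against 3375 higher and 3143 lower in the scaled values.

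The neuronal label was set against marker genes. Nefm and Snap25 were at 0 in all 6 libraries, the mean FPKM of Rbfox3, Nefl, Syt1 and Stmn2 was under 0.1 in both groups, and Tubb3 averaged 5.32 ± 0.214 FPKM (SD, n = 3) in control and 3.4 ± 0.832 in Al libraries. Of 14 neuron markers 4 were tested, and 1, Ncam1, was called higher. Collagen transcripts were abundant, with Col1a2 at 1660 ± 361 FPKM in control and 1620 ± 195 in Al libraries. Summed over 8 fibroblast and mesenchymal markers, the scaled level ran from 3050 to 4390 in control and from 4860 to 6540 in Al libraries, with Col1a1 called higher and Dcn, Lum and Pdgfra called lower. On deposited FPKM Col1a1, Col1a2, Col3a1 and Vim, which make up most of that sum, each overlapped between the groups. This sum and those below are of scaled values, so the distance between the groups depends on the scaling. The summed neuron markers ran from 20.4 to 21.8 and from 28.9 to 34, with Ncam1 at 13.9 ± 0.847 and 24.3 ± 4.21 scaled FPKM, Tubb3 at 4.48 ± 0.212 and 4 ± 0.97 and Eno2 at 2.43 ± 0.64 and 2.05 ± 1.33. In astrocyte markers the sum ran from 27.7 to 35.9 and from 36.7 to 46.3, with Aqp4 at 0. There Gja1 was called higher, at 16.7 ± 1.33 and 38.8 ± 5.27, and Slc1a3 lower, at 15.9 ± 3.8 and 1.96 ± 0.582. The sum ran in oligodendrocyte markers from 0.277 to 0.595 and from 0.874 to 1.72, with Cnp called higher, and in microglia markers from 33.6 to 41.4 and from 23.9 to 90.5, with P2ry12 at 0. Nearly all of the microglia sum was Tmem119, which was not called (33 to 40.5 and 22.8 to 89.8), while Cx3cr1, at 0.0561 ± 0.0236 and 0.647 ± 0.412, was called higher and Aif1, at 0.665 ± 0.208 and 0.364 ± 0.115, was not called. The part of these shifts in the results below was not tested, and in bulk RNA fewer cells of a type and less RNA per cell cannot be told apart.

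**Figure D1:**
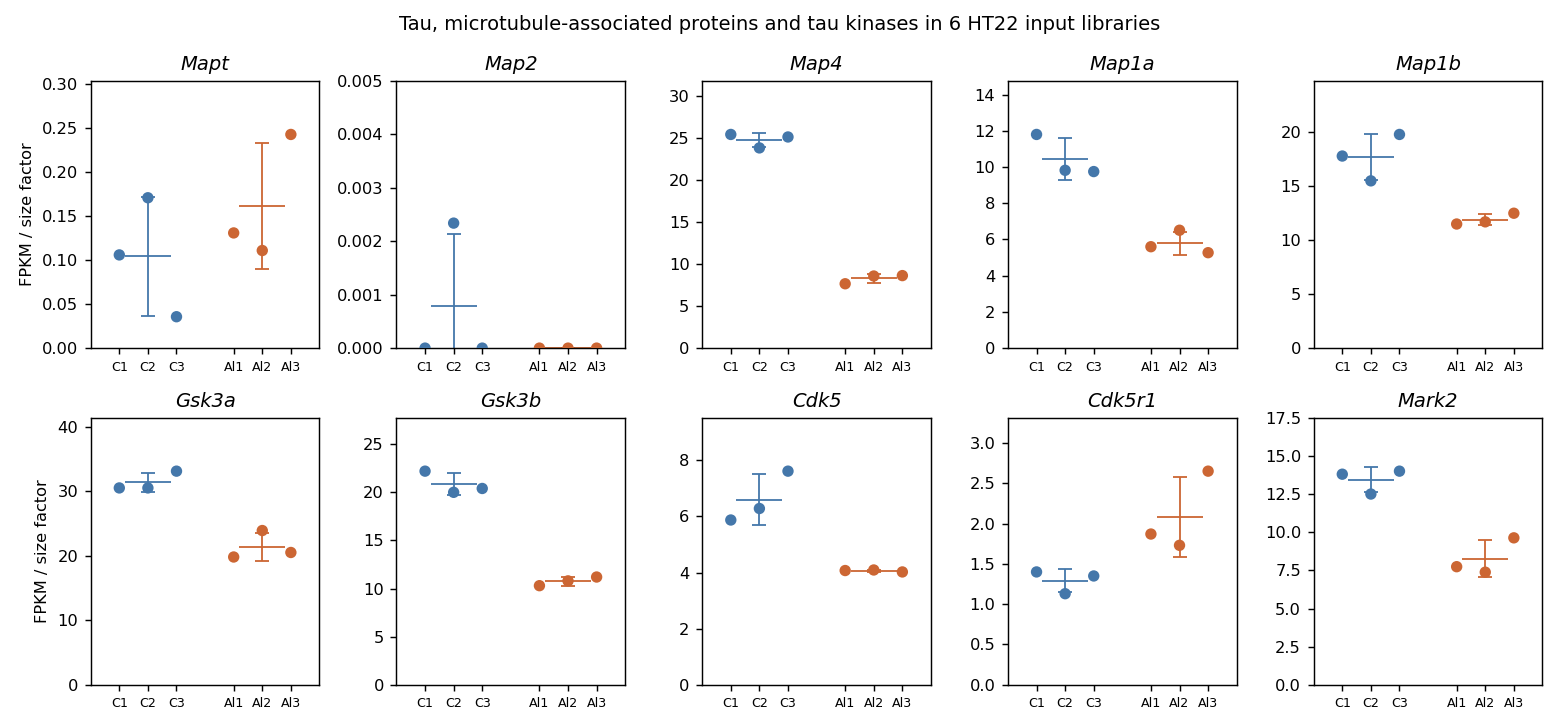
FPKM divided by the size factor in each library for the 10 genes with control libraries C1 to C3 in blue, Al libraries Al1 to Al3 in orange, group means as horizontal bars and the SD over 3 libraries as whiskers, each vertical axis starting at 0. The Al points lie wholly below the control points in 7 genes (Map4, Map1a, Map1b, Gsk3a, Gsk3b, Cdk5 and Mark2) and wholly above them in Cdk5r1, and they overlap in Mapt and Map2.

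Transcripts of tau and Map2 were nearly absent. Mapt (chr11:104231390-104332090, plus strand, GRCm38) measured 0.126, 0.207 and 0.0419 FPKM in the control libraries and 0.105, 0.0907 and 0.226 in Al libraries, from 41, 77 and 16 reads and 24, 17 and 41 reads. The libraries interleaved, and the highest and the lowest of the 6 were an Al and a control library. The log2 fold change was 0.38 (SE 0.41, 95% interval -0.56 to 1.32, adjusted P = 0.442), an interval with room for change in either direction. It was called in none of 17 alternative fits, where its change ran from -0.03 to 0.84.

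Map2 (chr1:66175273-66442583, plus strand) had 2 reads in control library 2, or 0.00283 FPKM, and 0 reads in the other libraries. A count of 0 allows up to 3 reads, which at the length of this transcript is 0.00414 to 0.00872 FPKM, so a difference between groups was not detectable at this depth. It did not enter the test.

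Map4, the broadly expressed member of the family, changed the most of the tested members. It lies at chr9:109931460-110083955 on the plus strand and measured 30, 28.7 and 29.4 FPKM in the control libraries against 6.14, 6.98 and 8.03 in the Al libraries, from 17311 to 19855 and from 2310 to 2570 reads. The groups were far apart, with little spread in either. Scaled, Map4 averaged 24.7 in control and 8.28 in Al libraries, a log2 fold change of -1.57 (SE 0.10, 95% interval -1.79 to -1.35, adjusted P = 9.62e-06). Of all tested genes 4.9% had a change as low. Map4 was called lower in all 18 alternative fits, with changes from -2.35 to -1.32.

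The MAP1 genes encode the large neuronal proteins. Map1a (chr2:121289600-121310832, plus strand) measured 13.9, 11.9 and 11.4 FPKM in control and 4.49, 5.3 and 4.92 in Al libraries. Every Al value was under every control value. It fell to 55.9% of control, a log2 fold change of -0.84 (SE 0.13, 95% interval -1.14 to -0.54, adjusted P = 0.000634). On the opposite strand Ppip5k1 shares 272 bases, or 2.24%, of the exons of Map1a, and although the library kit marks strand (TruSeq Stranded mRNA), whether the counting used it is not given in the sources used here.

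Map1b (chr13:99421446-99516540, minus strand) measured 21.1, 18.8 and 23.2 FPKM in control and 9.23, 9.52 and 11.6 in Al libraries, and the groups did not overlap. Its log2 fold change was -0.57 (SE 0.11, 95% interval -0.82 to -0.31, adjusted P = 0.00246), just short of the fold threshold. On deposited FPKM it was -1.05 and past the threshold, after quantile normalization -0.62 and past it, and after a correction for GC content and length -0.34. Without control replicate 2 it was -0.66 and without Al replicate 3 it was -0.60, both past the threshold.

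Because ratios of genes within a library need no scaling between libraries, the makeup of the family was also compared. Of the summed FPKM of the 5 microtubule-associated proteins, Map4 made 46.1%, 48.2% and 45.9% in control libraries and 30.7%, 31.9% and 32.4% in Al libraries. Map1b made 32.4%, 31.5% and 36.2% in control and 46.2%, 43.5% and 46.8% in Al libraries. Map4 was thus the largest of the 5 in each control library and Map1b in each Al library. The share of Map1a was 19.7% ± 1.77 (SD, n = 3) and 22.2% ± 2.21, with overlapping libraries, and that of Mapt was 0.202% ± 0.141 and 0.617% ± 0.262. Scaled, the sum of the 5 was 53 ± 3.2 in control and 26.1 ± 1.07 in Al libraries.

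**Figure D2:**
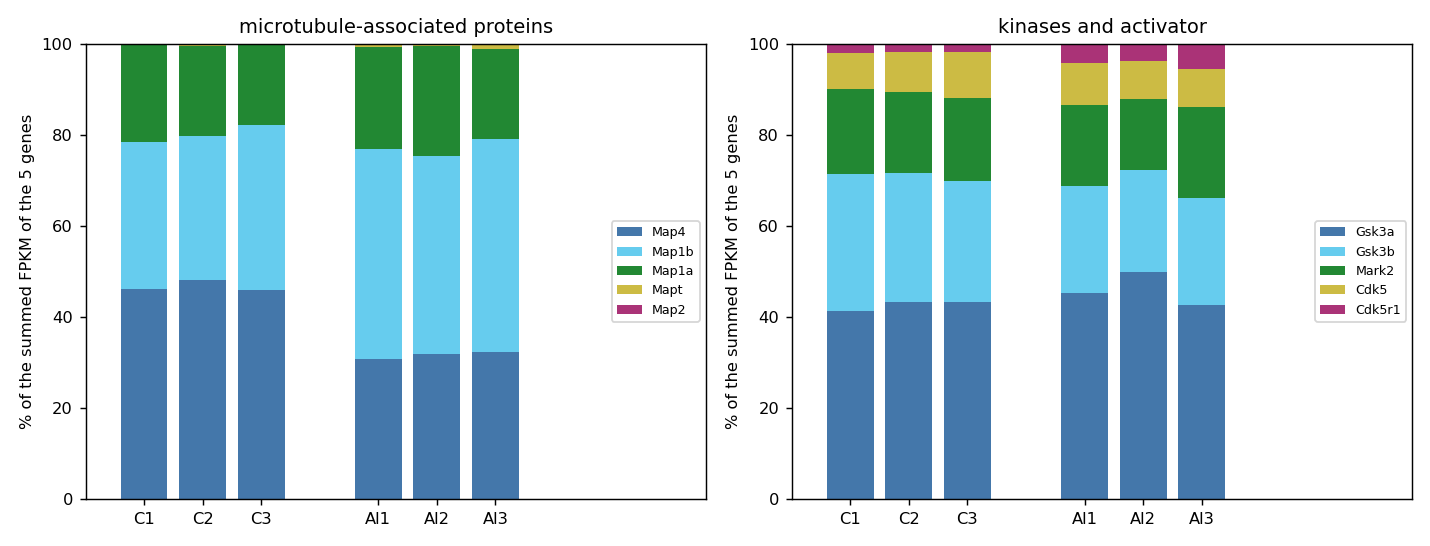
Share of each gene in the summed FPKM of the 5 microtubule-associated proteins (left) and of the 4 kinases with Cdk5r1 (right), in %, 1 bar per library, C1 to C3 for control and Al1 to Al3 for Al. Map4 takes 45.9% to 48.2% of the control bars and 30.7% to 32.4% of the Al bars, and Cdk5r1 takes 1.61% to 1.9% of the control bars and 3.6% to 5.52% of the Al bars.

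The log2 ratio of Mapt to Map4 was 2.18 higher in Al libraries, from -7.11 ± 0.58 (SD, n = 3) to -4.93 ± 0.29. All 3 Al values lay above the control values, and the exact two-sided permutation P was 0.1, the smallest that 3 against 3 allow. Mapt itself overlapped between groups and lies near the pseudocount of 0.1, while Map4 alone changed by -2.05 on deposited FPKM, so this ratio too holds mainly Map4. Without a pseudocount the difference was 2.40. The log2 ratio of Map1b to Map1a was 0.27 higher in Al libraries with overlapping groups (exact permutation P = 0.2). The ratio of Map2 to Map4 moved by 2.04, but with Map2 at 0 to 2 reads it holds only Map4 and the pseudocount. The 5 ratios tested had adjusted P values between 0.125 and 0.2.

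Both isoforms of glycogen synthase kinase 3, a constitutively active kinase of tau and of beta-catenin, were measured well. Gsk3a (chr7:25228258-25237851, minus strand) was the most abundant of the 10 genes per length in both groups, with 36.1, 36.9 and 38.9 FPKM in control and 15.9, 19.5 and 19.1 in Al libraries. The groups did not overlap. Scaled, its log2 fold change was -0.55 (SE 0.10, 95% interval -0.79 to -0.32, adjusted P = 0.00174), short of the fold threshold, and it was -1.04 on deposited FPKM and -0.76 after quantile normalization, both past it. It also passed after the correction for GC content and length and without Al replicate 2, at -0.64 in both. An antisense gene, 9130221H12Rik, shares 820 bases, or 28.28%, of the exons of Gsk3a, so if the counting did not use strand their reads cannot be told apart.

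Gsk3b (chr16:38089001-38246084, plus strand) measured 26.3, 24.2 and 23.9 FPKM in control and 8.28, 8.79 and 10.5 in Al libraries. Each Al value was under each control value. It fell to 52% of control, a log2 fold change of -0.94 (SE 0.10, 95% interval -1.16 to -0.73, adjusted P = 6.39e-05), and was called lower in all 18 alternative fits, though not with a fold threshold of 1. The ratio of Gsk3b to Gsk3a was 0.728, 0.656 and 0.615 in control libraries and 0.522, 0.452 and 0.549 in Al libraries. The isoforms thus stood closer in control, with no overlap and an exact two-sided permutation P of 0.1, again the smallest possible. The transcripts differ in length, 2260 bases for Gsk3a and 8523 for Gsk3b, and changes moved with length over all genes. After the correction for GC content and length Gsk3b was at -0.78 and Gsk3a at -0.64, closer together than the -0.94 and -0.55 without it. The part of length in this ratio was not tested.

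The sequence before the start site was set beside these levels for 3 genes, the 2 isoforms of the kinase and Map4, the gene with the largest change. RefSeq promoter entries (GRCm38.p6) were found for 7 of the 10 genes, and the 250 bases before the start are printed 5′ to 3′ on the gene's strand. Capitals mark GC boxes (GGGCGG) and CCAAT boxes (CCAAT) on either strand, which do not overlap each other here.
Map4, chr9:109931524-109931773, plus strand: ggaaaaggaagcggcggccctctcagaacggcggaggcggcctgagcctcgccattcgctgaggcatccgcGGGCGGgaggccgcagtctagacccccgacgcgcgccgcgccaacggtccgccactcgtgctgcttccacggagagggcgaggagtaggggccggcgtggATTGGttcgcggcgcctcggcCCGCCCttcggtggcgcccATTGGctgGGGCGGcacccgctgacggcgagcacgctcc
Gsk3a, chr7:25237852-25238101, minus strand: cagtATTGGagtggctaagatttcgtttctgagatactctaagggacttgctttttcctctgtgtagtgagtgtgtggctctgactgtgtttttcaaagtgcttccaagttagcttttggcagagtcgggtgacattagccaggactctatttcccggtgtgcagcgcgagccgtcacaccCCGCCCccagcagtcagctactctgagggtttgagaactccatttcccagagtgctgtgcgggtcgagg
Gsk3b, chr16:38088751-38089000, plus strand: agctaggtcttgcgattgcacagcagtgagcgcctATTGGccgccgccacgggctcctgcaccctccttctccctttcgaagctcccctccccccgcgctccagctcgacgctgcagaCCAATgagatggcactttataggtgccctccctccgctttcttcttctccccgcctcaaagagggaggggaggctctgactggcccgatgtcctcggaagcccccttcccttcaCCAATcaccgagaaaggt
The Map4 window, before the first of 2 RefSeq starts and inside the GENCODE gene span given above, held 3 GC boxes and 2 CCAAT boxes at 74% GC, the Gsk3a window 1 and 1 at 52% GC, and the Gsk3b window 0 and 3 at 62% GC. The window of the second Map4 start, chr9:110051771-110052020, held 0 and 1 at 43.6% GC. Among 32851 mouse promoter windows of this length 32.7% held a GC box and 33.8% a CCAAT box, and the median GC content was 52.4%. No window of the 7 genes held the E-box CACGTG or the cAMP response element TGACGTCA, which 6.02% and 1.55% of all windows held. The matches describe letters only.

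Cdk5, a kinase active in neurons only when bound by its activator, and Cdk5r1, which encodes that activator p35, stood in different directions in the scaled values, though both were below 0 with TPM, at -1.45 and -0.11. Cdk5 (chr5:24418241-24423530, minus strand) measured 6.96, 7.59 and 8.93 FPKM in control and 3.27, 3.33 and 3.74 in Al libraries, with no overlap. It fell to 62.6% of control, a log2 fold change of -0.68 (SE 0.13, 95% interval -0.98 to -0.37, adjusted P = 0.00236). The call was lost after quantile normalization, at -0.43, with a pseudocount of 1, at -0.58, and without control replicate 3, at -0.57.

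Cdk5r1 (chr11:80477023-80481184, plus strand) measured 1.66, 1.37 and 1.59 FPKM in control and 1.5, 1.41 and 2.47 in Al libraries as deposited. Those values overlapped, and Al library 3 was the highest. After scaling all 3 Al libraries were above the controls, at 1.87, 1.73 and 2.65 against 1.4, 1.13 and 1.35, and the log2 fold change was 0.63 (SE 0.21, 95% interval 0.14 to 1.11, adjusted P = 0.0295), although it was -0.11 after scaling to TPM. The call was also lost on deposited FPKM, at 0.17, with a pseudocount of 1, at 0.41, without control replicate 2, at 0.54, and without Al replicate 3, at 0.45.

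The ratio of activator to kinase, which needs no scaling, was 0.238, 0.181 and 0.178 in control libraries and 0.458, 0.422 and 0.661 in Al libraries. The groups did not overlap, and the log2 ratio was 1.32 higher in Al libraries, or 2.5-fold (exact two-sided permutation P = 0.1, the smallest possible, adjusted P = 0.125 over the 5 ratios). Without any 1 library the difference stayed between 1.14 and 1.46.

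Mark2 encodes a kinase that phosphorylates the microtubule-binding repeats of tau. It lies at chr19:7275396-7341860 on the minus strand and measured 16.3, 15.1 and 16.4 FPKM in control and 6.21, 6.01 and 8.98 in Al libraries, with Al library 3 nearest to the controls. It fell to 61.4% of control, a log2 fold change of -0.70 (SE 0.13, 95% interval -0.99 to -0.41, adjusted P = 0.00143). After the correction for GC content and length the change was -0.57 and the call was lost.

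**Figure D3:**
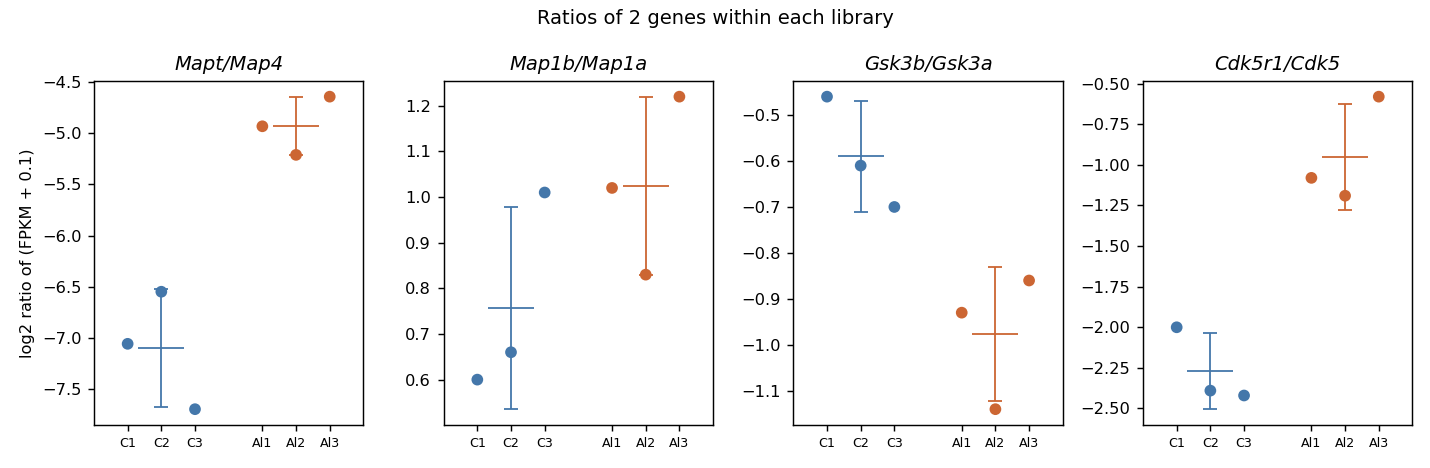
Log2 ratio of 2 genes within each library, as log2 of FPKM + 0.1 with control in blue, Al in orange, group means as horizontal bars and the SD over 3 libraries as whiskers, on vertical axes that do not start at 0. The Al points lie above the control points for Mapt/Map4 and Cdk5r1/Cdk5 and below them for Gsk3b/Gsk3a, and overlap for Map1b/Map1a.

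Set in order of mean scaled FPKM, the control libraries ran Gsk3a, Map4, Gsk3b, Map1b, Mark2, Map1a, Cdk5, Cdk5r1, Mapt and Map2, from 31.4 down to 0.00078, and no 2 neighbours overlapped. In the Al libraries the order was Gsk3a, Map1b, Gsk3b, Map4, Mark2, Map1a, Cdk5, Cdk5r1, Mapt and Map2. There Map4, at 7.65 to 8.62, overlapped Mark2, at 7.38 to 9.63, and no other neighbours did. Map4 thus stood above Gsk3b and Map1b in control libraries and below both in Al libraries.

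**Figure D4:**
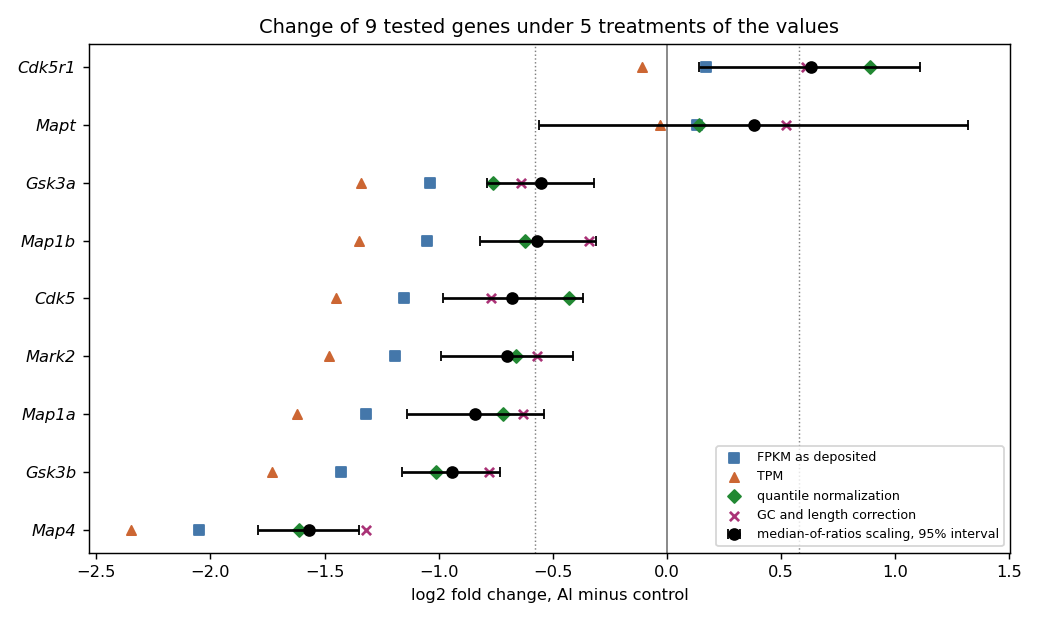
Log2 fold change of the 9 tested genes, Al minus control, in the scaled values (black, with 95% intervals from limma) and under 4 other treatments of the values, with dotted lines at -0.58 and 0.58. Map4, Gsk3b and Map1a lie below -0.58 under all 5, and Cdk5r1 lies at 0.63 in the scaled values and at -0.11 with TPM.

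Transcript length moved with the change over all genes. The median log2 fold change was 0.45 in the shortest of 10 length classes of tested genes and -0.27 in the longest, where 33.3% were called lower. That longest class, from 7748 bases, holds Mapt, Map4, Map1a, Map1b and Gsk3b. After the correction for GC content and length Map4, Gsk3b and Map1a were at -1.32, -0.78 and -0.63 and still called lower. Map1b was at -0.34, and Mark2 lost its call at -0.57. In the other direction, Gsk3a was at -0.64 and Cdk5 at -0.77, both further from 0 than without the correction. Cdk5r1 was at 0.61 and the uncalled Mapt at 0.52. The part of length in the members' changes was not tested.

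The wider set of tau and microtubule genes did not share the members' median. The table holds 120 other such genes, of which 107 were tested, 23 were called higher and 29 lower. These were 21.5% and 27.1%, near the 26.2% and 24.4% of all tested genes, with a median log2 fold change of 0.09. Members and lists were chosen with earlier results of these data known, so the contrast of their medians is a description. Scaling moved the counts of each list below, as it did those of all genes. Among 22 other tested microtubule-associated proteins 4 were higher and 6 lower, or 18.2% and 27.3%, against 0 and 7 on deposited FPKM and 0 and 13 with TPM. Dclk1, a doublecortin-like kinase that binds microtubules, fell by 1.53 on the log2 scale (adjusted P = 4.72e-05), and Clip2, a plus-end linker protein, fell by 1.30 (adjusted P = 0.000246). Camsap2 and Camsap1, which cap microtubule minus ends, rose by 0.81 and 0.80 in the scaled values (adjusted P = 0.000216 and 0.000206), but both were at 0.32 on deposited FPKM and they were at 0.03 and 0.02 with TPM, none of these called.

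Of 28 other tested tau kinases and activators 5 were higher and 8 lower, or 17.9% and 28.6%, beside the 26.2% and 24.4% of all tested genes. On deposited FPKM the counts were 1 and 12, beside 1805 and 5417 of all 12889 tested genes. With TPM they were 0 and 20, beside 1200 and 6843. Mark1, a relative of Mark2, fell from 2.49 ± 0.233 to 0.715 ± 0.263 scaled FPKM (SD, n = 3), a log2 fold change of -1.71 (adjusted P = 0.000437). Mapk9, which encodes the kinase JNK2, fell by 1.20 (adjusted P = 5.19e-05). Csnk1d, a casein kinase that phosphorylates tau, rose by 1.06 in the scaled values (adjusted P = 4.38e-05), and the mitotic kinase Cdk1 rose by 0.99 (adjusted P = 0.000105). Neither was called on deposited FPKM or with TPM. Cdk5r2, which encodes p39, the other Cdk5 activator, was not tested, with 7 reads in control library 2 and 0 in the other libraries.

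Phosphatases act against these kinases, and of 24 tested 7 were higher and 5 lower. These were 29.2% and 20.8%, beside the 26.2% and 24.4% of all tested genes. On deposited FPKM the counts were 2 and 6, and with TPM 0 and 11. Of 11 tested subunits of protein phosphatase 2A, the main tau phosphatase in brain, 6 were higher and 2 lower in the scaled values, 5 and 2 after quantile normalization, 2 and 3 on deposited FPKM, and 0 and 3 with TPM. The 2 lower ones, named after their values were seen, were the regulatory subunits Ppp2r5a and Ppp2r5b, at -0.66 and -1.39. Among all 12889 tested genes 3375 were higher and 3143 lower in the scaled values, and 2860 and 3115 after quantile normalization. On deposited FPKM the counts over all genes were 1805 and 5417, and with TPM 1200 and 6843. The split of the phosphatases into families was not among the planned results. The scaffold Ppp2r1a measured 137, 126 and 132 FPKM in control and 241, 241 and 226 in Al libraries, with no overlap. Scaled, it averaged 111 ± 5.83 and 280 ± 32 (SD, n = 3), a log2 fold change of 1.33 (SE 0.13, adjusted P = 5.47e-05), against 0.84 on deposited FPKM, 0.66 after quantile normalization and 0.54 with TPM. Ppp2r2a, a regulatory B subunit, rose by 1.28 (adjusted P = 1.26e-05). The calcineurin catalytic subunits Ppp3ca and Ppp3cb fell by 1.87 and 1.52 (adjusted P = 1.42e-05 and 9.9e-05). Of 4 tested calcineurin genes 3 were lower under each scaling, where between 3115 and 6843 of all 12889 tested genes were lower, the most with TPM. The regulatory subunit Ppp3r1, named after its value was seen, was higher at 0.72 in the scaled values and not called under the other 3 scalings.

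Of 15 tested genes of tau folding, clearance, glycosylation and uptake 4 were higher and 3 lower. These were 26.7% and 20%, beside the 26.2% and 24.4% of all tested genes. On deposited FPKM the counts were 1 and 5, and with TPM 0 and 8. Fkbp5, which encodes the Hsp90 co-chaperone FKBP51, measured 19.9, 20.3 and 21.1 FPKM in control and 4.74, 4.99 and 4.83 in Al libraries. Its groups were tight and far apart, with a log2 fold change of -1.57 in the scaled values (adjusted P = 1.39e-05). Hdac6, a tubulin deacetylase, fell by 0.81 (adjusted P = 0.000504), while the Hsp70 co-chaperones Bag1 and Bag3 rose by 1.26 and 0.99 (adjusted P = 0.000837 and 3.7e-05). On deposited FPKM Bag1 was still called higher and Bag3 was not, and with TPM neither was. Stub1, the ubiquitin ligase CHIP that marks tau for breakdown, was not called, with a log2 fold change of 0.16 (95% interval -0.16 to 0.48, adjusted P = 0.334), and with TPM it was at -0.62.

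Of 18 tested enzymes of microtubule severing and tubulin modification 3 were higher and 7 lower, or 16.7% and 38.9% beside the 26.2% and 24.4% of all tested genes, with a median of -0.42. On deposited FPKM and with TPM the counts were 1 and 12. The tubulin tyrosine ligase-like genes moved in both directions, Ttll7 and Ttll1 falling by 1.60 and 1.29 (adjusted P = 0.000145 and 0.000672) and Ttll3 rising by 1.58 (adjusted P = 0.000103). Katna1, the catalytic subunit of the severing enzyme katanin, rose by 0.72 (adjusted P = 0.000296) in the scaled values and was at -0.06 with TPM. Of the 10 named genes of these lists that were called higher, 4 were still called on deposited FPKM (Ppp2r1a, Ppp2r2a, Bag1 and Ttll3), 1 with TPM (Ttll3) and 9 after quantile normalization, where Csnk1d was at 0.57. The 10 called lower were still called under all 3.

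**Figure D5:**
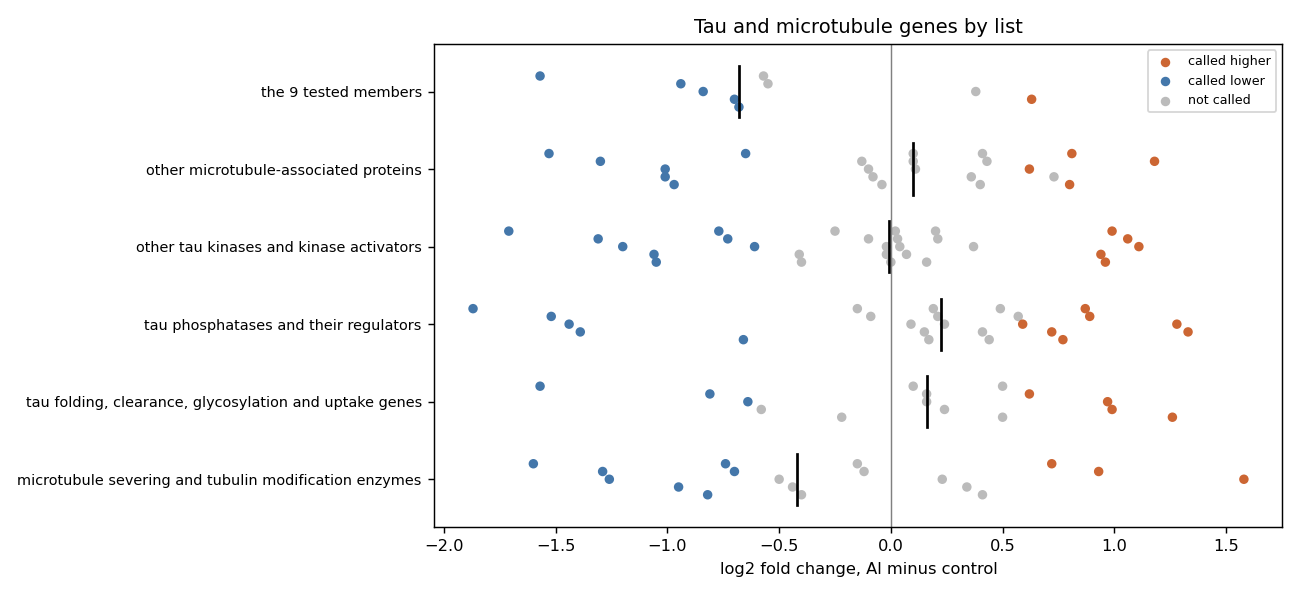
Log2 fold change, Al minus control, of each tested gene in the 9 tested members and in 5 lists of other tau and microtubule genes with genes called higher in orange, called lower in blue and not called in grey, and list medians as black bars. The members' median is at -0.68, and those of the other lists lie between -0.42 and 0.23.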

How the data were processed

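RNA of 6 HT22 input libraries, 3 control and 3 Al, was analysed. The submitters' processing notes name fastp, HISAT2, HTSeq and GRCm39, while the paper's methods name Trimmomatic, SortMeRNA and GRCm38/mm10, so the build of the table is uncertain. The authors deposited FPKM by gene symbol, 1 column per library, and no scaling between libraries beyond that was found. Whole reads were recovered from the FPKM steps for 17684 of 17688 genes above 0. Gene lengths implied by them were whole, within 0.01 bases, for 2998 of 3000 genes checked.

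FPKM were divided by median-of-ratios size factors and genes averaging 0.1 FPKM or more were fitted with limma 3.58.1 in R 4.3.3 (lmFit, eBayes with trend, 6 libraries, no covariate). Within-library ratios were compared by exact permutation in scipy 1.17.1. Tested on simulated data of 12610 genes with 200 changed by 1.5 on the log2 scale in either direction, 100% of the 200 were called, as were 0.548% of the rest. Smaller changes, and data with as many called genes as these libraries, were not tested in this way. Near-identical copies were searched with minimap2 2.31-r1302. The members and gene lists were chosen with earlier results of these data known. From each list up to 2 increases and 2 decreases were named, the largest among called genes that averaged 1 FPKM or more, passed 0.05 after adjustment and had groups that did not overlap. All 10 members were named, and Fkbp5, Stub1 and Cdk5r2 by name. Positions are those of GENCODE M21 on GRCm38.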

Additional observations from a re-analysis of the deposited data

How the results depend on the processing

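Over 161 combinations of a tested member and an alternative, 11 gained the call and 10 lost it. The sign turned in 2, both with TPM, Cdk5r1 at -0.11 and the uncalled Mapt at -0.03. Katna1 at -0.06 and Stub1 at -0.62 turned with TPM too. On deposited FPKM 1805 genes were higher and 5417 lower, with TPM 1200 and 6843, and with a log2 fold change over 1 2065 and 1816. No member was called higher (0) on deposited FPKM, with TPM, with a pseudocount of 1 or with a log2 fold change over 1, where 1 was called lower. Of the other tau and microtubule genes 5 were higher on deposited FPKM, 1 with TPM and 7 with a log2 fold change over 1, and 64 were lower with TPM and 17 with a log2 fold change over 1. Without 1 library each, between 0 and 1 members were higher (0 without control replicate 2 or Al replicate 3) and between 4 and 6 lower. The stricter threshold lowers counts by construction. For the rest the cause was not tested.

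Libraries of the same number did not deviate together (correlations from -0.112 to -0.060). With a replicate block in the fit 3352 genes were higher and 3123 lower, with 1 and 5 members. A block cannot move the mean difference of the ratios (1.32 for Cdk5r1 to Cdk5). Depth limits Map2, at 0 to 2 reads, and Mapt, at 16 to 77.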

Other observations

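Over the 6 libraries, the tested genes averaging 1 FPKM or more whose scaled log2 values, centred on their mean, were nearest to those of Mapt were Mss51, Ypel1, Slc22a5, AU041133 and Usp28. Their root mean squared differences from Mapt were 0.15, 0.17, 0.17, 0.17 and 0.19 on the log2 scale. Mss51 measured 1.06, 1.71 and 0.697 FPKM in control and 1.06, 0.698 and 1.68 in Al libraries, with overlapping groups as for Mapt, and none of the 5 was called (their adjusted P values lay between 0.143 and 0.809). At 16 to 77 reads per library Mapt itself carries a large counting error, so this likeness is a description.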
